A study of Saccharomyces cerevisiae with 8 samples.

Results

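Messenger RNA and noncoding RNA were compared between 2 yeast strains given rapamycin, one in which the nuclear RNA-binding protein Nab2 could be pulled out of the nucleus and one in which it could not. The comparison takes 4 of the 8 libraries of the study by their labels. The anchor-away libraries are the 2 biological replicates of Saccharomyces cerevisiae strain Y3284 after 15 min with rapamycin at 1 µg/ml. The control libraries are the 2 biological replicates of strain Y2615 after 30 min with the same dose. Both strains carry the allele tor1-1, a disruption of FPR1 (fpr1::loxP-LEU2-loxP) and the anchor RPL13A-2xFKBP12::loxP-TRP1-loxP. Strain Y3284 also carries NAB2-FRB::HIS. The label of Y2615 gives the mating type MATa, and that of Y3284 writes MAT with no type. Cells grew in YPAD at 30°C. All 7658 features of the count table entered, of which 6191 had enough counts to be tested. Anchoring of Nab2, the strain and its markers, the mating type and the time with rapamycin differ together between the groups and cannot be told apart in this comparison. The other 4 libraries, from Y3284 before rapamycin (0 min) and after 30 min, are given beside it where they bear on a value.

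Nab2 is a zinc-finger protein that binds the poly(A) tails of new transcripts in the nucleus, and it is known to act in poly(A) tail control, in protection of nuclear mRNA from decay and in mRNA export. In the anchor-away method, rapamycin joins a protein tagged with FRB to a ribosomal protein tagged with FKBP12, which carries it to the cytoplasm as new ribosomal subunits leave the nucleus. The tor1-1 allele and the loss of Fpr1 are used so that rapamycin does not arrest growth. Short noncoding transcripts such as cryptic unstable transcripts (CUTs) are normally ended by the Nrd1-Nab3-Sen1 complex, tailed by the TRAMP complex and destroyed by the nuclear exosome. Stable unannotated transcripts (SUTs) are noncoding RNAs that are seen without disabling that decay.

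The 15 min libraries held 9308525 and 7562684 counts and the control libraries 8883059 and 10435087. Replicate 1 of each group was of low complexity: features with no count made up 24.4% of the table in the 15 min library and 28.2% in the control library, whereas both replicates 2 had fewer, 12.9% and 15.4%. Of the libraries given beside these, replicate 2 at 30 min was also of low complexity, with 28.2% of features at 0 and 4832947 counts. Levels are given as CPM, counts per 1000000 of the library total after scaling with TMM factors. They are not corrected for the length of a gene. With 0 spike-in features in the table, each difference is relative to the bulk of the RNA, and fewer cells of a type and less RNA per cell cannot be told apart.

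Of the 6191 features tested, 33 were higher (0.533%) and 30 lower (0.485%) in the anchor-away libraries at 15 min, together 63 or 1.02%, by edgeR's quasi-likelihood test at a Benjamini-Hochberg adjusted p under 0.05. They comprised 60 transcripts of open reading frames, 1 CUT, 1 SUT and 1 snoRNA. For all 63 the libraries of the groups did not overlap, an order that 24.8% of all features tested showed upwards and 22.6% downwards. At least 4-fold differences made up 21 of the rises and 8 of the falls. The rises ranged from 1.06 to 8.89 on the log2 scale and the falls from -3.58 to -1.06. The count and its split also moved with the scaling of the libraries. It was 61 with 21 higher when only library totals were used, 33 with 22 higher with upper-quartile factors, 3, all higher, when scaled to mitochondrial features, and 717 with 23 higher when scaled to snoRNAs. Most single calls rested on particular libraries. Without 15 min replicate 1, 4 of the 63 features still passed, without 15 min replicate 2 22, without control replicate 1 18 and without control replicate 2 27. In those 4 fits the number of features that passed was 4, 52, 26 and 75 in the same order, each with 1 library left in a group, which is then assumed to vary like the other groups. The 4 that passed in every one of these fits were MF(ALPHA)2, STE3, AFB1 and SAG1, all genes of the alpha mating type. TIR1, SUT198, ROX1 and COA3 passed in 3 of the 4. Leaving out every library with over 20% of features at 0 left 12 features that passed, 9 of them among the 63, in a fit with 1 library at 15 min and 1 in the control.

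**Figure D1:**
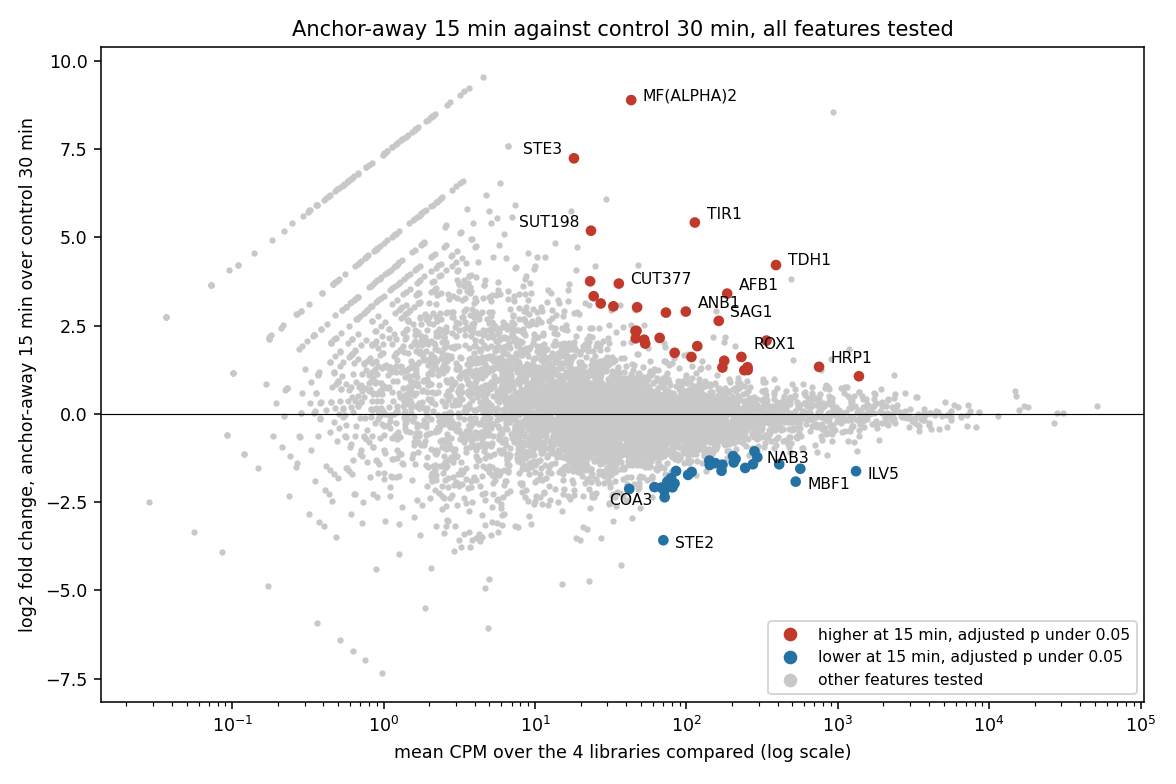
Log2 fold change of each tested feature between the anchor-away strain at 15 min and the control strain at 30 min, plotted against its mean CPM over the 4 libraries on a log axis. Red points are the 33 features that were higher and blue points the 30 that were lower; among these 63 the values run from -3.58 for STE2 to 7.24 for STE3 and 8.89 for MF(ALPHA)2, while some features of low CPM that did not pass lie further out.

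The transcripts that set the 15 min libraries furthest apart from the control were those of mating type. Haploid yeast of type alpha make alpha-factor and the receptor for a-factor, and haploids of type a make a-factor and the receptor for alpha-factor. Of the 5 alpha-specific genes measured 4 were higher at 15 min and the fifth had the same order of libraries without passing. Of the 6 a-specific genes measured 1 was lower at 15 min, and the other 5 were below both control libraries in both 15 min libraries without passing. Alpha-specific genes are switched on by the alpha1 protein, and a-specific genes are switched off by the alpha2 repressor, each together with Mcm1. Stretches of promoter are shown because the letters known for these proteins were found in the promoters of the genes that separate the groups. The core of the alpha1 box, CAATGNCAG, is in capitals in the first 3 and the half-site of alpha2, CATGTAA, in the last 3. Where the letters lie on the other strand, the capitals show the reverse complement. The sequences are from RefSeq (build R64), written on the strand of the gene.
MF(ALPHA)2: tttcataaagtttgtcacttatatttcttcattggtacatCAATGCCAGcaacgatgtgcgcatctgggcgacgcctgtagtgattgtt
STE3: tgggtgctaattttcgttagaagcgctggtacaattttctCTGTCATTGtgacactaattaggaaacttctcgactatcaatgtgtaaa
SAG1: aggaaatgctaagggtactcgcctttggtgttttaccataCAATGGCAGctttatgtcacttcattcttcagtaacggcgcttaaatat
STE2: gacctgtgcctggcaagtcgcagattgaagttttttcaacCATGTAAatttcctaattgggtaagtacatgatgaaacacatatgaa
AGA2: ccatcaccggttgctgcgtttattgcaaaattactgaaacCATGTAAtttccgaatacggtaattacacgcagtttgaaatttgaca
MFA2: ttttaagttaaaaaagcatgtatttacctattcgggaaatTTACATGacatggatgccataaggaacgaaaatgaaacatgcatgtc
The windows of the alpha-specific genes lie at chrVII:345405-345493, minus strand, for MF(ALPHA)2, at chrXI:114920-115008, minus strand, for STE3 and at chrX:445083-445171, minus strand, for SAG1. Those of the a-specific genes lie at chrVI:82311-82397, plus strand, for STE2, at chrVII:437085-437171, minus strand, for AGA2 and at chrXIV:352147-352233, plus strand, for MFA2. In the 500 bases before the start codon, searched on both strands, CAATGNCAG was present in 3 of 5 alpha-specific genes, 0 of 6 a-specific genes and 89 of 6006 promoters of the genome (1.48%). CATGTAA was present in 6 of 6 a-specific genes, 1 of 5 alpha-specific genes (SAG1) and 377 of 6006 promoters (6.28%). These motifs do not overlap each other in the windows shown.

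Among the alpha-specific genes, MF(ALPHA)2 (chrVII:344791-345153), which encodes a precursor of alpha-factor, had 56.0 and 116 CPM at 15 min and 0 and 0.336 in the control. The control libraries thus held almost none of it, 3 counts in all against 1277 at 15 min, a ratio of 488 (95% exact binomial interval 167 to 2369, counting error only). Its fitted log2 fold change was 8.89 ± 0.82 (SE; edgeR adjusted p = 9.59e-06). STE3, the receptor for a-factor, had 41.0 and 30.9 CPM at 15 min and 0 and 0.448 in the control, again no overlap. Its fold rests on 562 counts against 4, a ratio of 161 (95% interval 62.6 to 593), and its fitted log2 fold change was 7.24 ± 0.91 (edgeR adjusted p = 0.000482). AFB1, a secreted barrier protein against a-factor, had 289 and 389 CPM at 15 min and 31.2 and 32.8 in the control. Unlike the pheromone and receptor genes it was well measured in the control too, and it was higher by 3.41 ± 0.28 on the log2 scale (edgeR adjusted p = 3.04e-06). SAG1, the alpha-agglutinin of the cell surface, had 269 and 294 CPM at 15 min and 49.2 and 41.6 in the control (log2 fold change 2.63 ± 0.28, edgeR adjusted p = 6e-05). Both libraries of 15 min lay far above both of the control for these genes. MF(ALPHA)1, the other gene for alpha-factor, had 1995 and 1716 CPM at 15 min and 0 and 9.86 in the control. That order was the same, but it did not pass (log2 fold change 8.55 ± 1.69, edgeR adjusted p = 0.156).

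Of the a-specific genes, STE2 (chrVI:82580-83875), the receptor for alpha-factor, had 8.31 and 13.4 CPM at 15 min and 145 and 115 in the control. Its log2 fold change was -3.58 ± 0.74 (edgeR adjusted p = 0.0363), and it did not pass in any fit that left out 1 of the 4 libraries (edgeR adjusted p from 0.066 to 0.494). AGA2, the binding subunit of a-agglutinin, had 2.22 and 1.02 CPM at 15 min and 52.3 and 35.1 in the control (log2 fold change -4.73 ± 1.27, edgeR adjusted p = 0.0813). MFA2, an a-factor precursor, had 0.468 and 1.60 CPM against 45.4 and 13.1 (log2 fold change -4.82 ± 1.27, edgeR adjusted p = 0.0796). None of these low levels at 15 min reached the lower of the control libraries. BAR1, the protease that degrades alpha-factor, had 0 and 7.28 CPM at 15 min against 46.3 and 93.9, and STE6, the exporter of a-factor, 25.6 and 5.39 against 53.5 and 41.9. STE6 had the smallest difference of the list (log2 fold change -1.62). MFA1 had 0 and 0.728 CPM at 15 min against 13.7 and 5.27 in the control. The median log2 fold change was 7.24 over the 5 alpha-specific genes and -4.49 over the 6 a-specific genes, against 0.04 over all features tested.

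The same genes already set Y3284 before rapamycin apart from the control, whose libraries all had 30 min with rapamycin. MF(ALPHA)2 had 105 and 91.4 CPM at 0 min, STE3 33.1 and 78.8, AFB1 453 and 390.5 and SAG1 201 and 198. STE2 had 2.66 and 2.65 CPM at 0 min. These levels are on the same side of the control as at 15 min. Against the same control, 5 of 6191 features (0.0808%) passed at 0 min: these 4 alpha-specific genes, higher, and STE2, lower. The labelled mating type of the control, a, matches its a-specific transcripts, and the libraries of Y3284 carried those of alpha. Of the 10 genes of the pheromone response that both types use, AGA1, the anchor subunit of a-agglutinin, was higher at 15 min and 9 did not pass, with a median log2 fold change of 0.59. AGA1 had 56.0 and 112 CPM at 15 min, 4.12 and 16.6 in the control and 24.7 and 38.5 at 0 min (log2 fold change over the control 3.02 ± 0.65, edgeR adjusted p = 0.0468). It passed in 1 of the 4 fits without a library, with adjusted p from 0.0191 to 0.23.

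**Figure D2:**
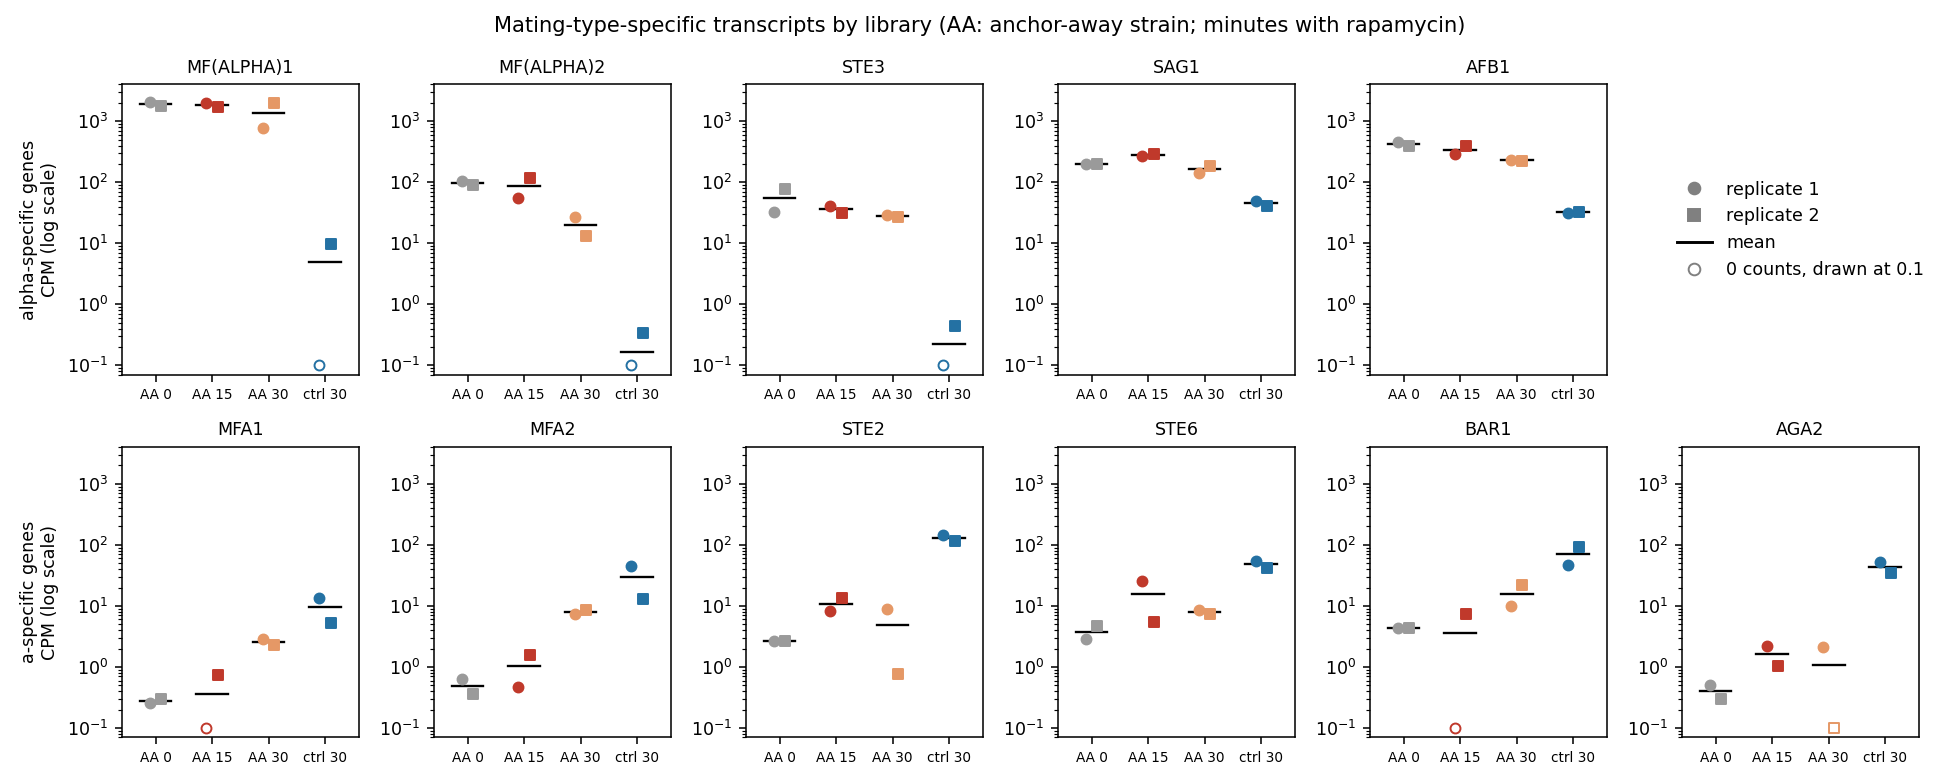
CPM on a log scale of the 5 alpha-specific genes (upper row) and 6 a-specific genes (lower row) in each library of the anchor-away strain (AA) at 0, 15 and 30 min and of the control at 30 min. Circles and squares are replicates 1 and 2, bars are means, and open symbols are libraries with 0 counts, drawn at 0.1; all 3 anchor-away groups lie on one side of the control for STE2, at 13.4 CPM or less against 115 or more.

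None of the 4 genes of the anchor system passed at 15 min by edgeR, DESeq2 or limma-voom, and 1 of them, RPL13A, had an unadjusted p under 0.05 in edgeR. NAB2 had 164 and 174 CPM at 15 min and 120.0 and 184 in the control, so the groups overlapped (log2 fold change 0.16 ± 0.28, edgeR adjusted p = 0.869). The method moves the Nab2 protein and not its mRNA, so this level does not check the anchoring. RPL13A, which carries the anchor, had 250.2 and 279 CPM against 385 and 445, lower in both libraries, and did not pass (-0.65 ± 0.31, edgeR adjusted p = 0.369). At 30 min it passed against the same control (-1.23 ± 0.31, edgeR adjusted p = 0.0234). TOR1 had 81.0 and 102 CPM against 130.0 and 68.7. FPR1, disrupted in both strains, had 0 and 1 count at 15 min and 0 and 4 in the control, too few for a fold. The composite feature HIS3/YOR203W had 92.9 and 124 CPM at 15 min, 13.0 and 35.9 in the control and 119.6 and 82.0 at 0 min. It was higher by 2.15 ± 0.44 on the log2 scale (edgeR adjusted p = 0.0315), in the strain whose NAB2 tag is marked with HIS, and its counts may belong to either gene. It passed in 1 of the 4 fits without a library, with adjusted p up to 0.157.

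Genes of RNA termination and surveillance moved in both directions. NRD1 and NAB3 encode the RNA-binding subunits of the complex that ends short noncoding transcripts, HRP1 a cleavage factor that binds the polyadenylation signal, and TRF5 a poly(A) polymerase of TRAMP. NRD1 (chrXIV:172588-174315) had 341 and 335 CPM at 15 min and 125 and 163 in the control. The replicates at 15 min were close and lay above both control libraries, by 1.23 ± 0.26 on the log2 scale (edgeR adjusted p = 0.0317). HRP1 (chrXV:87844-89448) had 1145 and 1006 CPM at 15 min against 468 and 388, a rise of 1.33 ± 0.24 (edgeR adjusted p = 0.0147). TRF5 (chrXIV:66517-68445) had 160.5 and 96.2 CPM against 47.7 and 29.8, a rise of 1.73 ± 0.36 (edgeR adjusted p = 0.0317). NAB3 (chrXVI:185317-187725) went the other way, with 194 and 170.2 CPM at 15 min against 375 and 386 in the control (log2 fold change -1.06 ± 0.25, edgeR adjusted p = 0.0484). SEN1, the helicase of the same complex, did not pass (-0.33). Without 15 min replicate 1 none of the 4 passed, with edgeR adjusted p of 0.251 for NRD1, 0.23 for HRP1, 0.436 for TRF5 and 0.426 for NAB3. Without 15 min replicate 2 they were 0.0878, 0.0418, 0.0223 and 0.236, without control replicate 1 0.202, 0.0456, 0.0428 and 0.151, and without control replicate 2 0.0311, 0.0553, 0.0854 and 0.0729, in the same order. The log2 fold changes kept their sign in all of these fits.

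At 0 min the same genes were at the level of the control. NRD1 had 142 and 107 CPM at 0 min, HRP1 409.7 and 416, TRF5 32.9 and 35.5 and NAB3 350.3 and 354. At 30 min NRD1 had 484 and 519.7 CPM, HRP1 1248 and 1226, TRF5 153 and 160.1 and NAB3 210.1 and 279. The 15 min level of the rising genes was thus above both unanchored groups and, for NRD1 and HRP1, below both 30 min libraries. Between 0 and 15 min the log2 fold change was 1.44 for NRD1, 1.38 for HRP1 and 1.91 for TRF5, with edgeR adjusted p of 0.0275, 0.025 and 0.0339, in a comparison where 0.162% of all features passed. That of NAB3 was -0.95 and did not pass (edgeR adjusted p = 0.185). The comparisons with 0 min and with the control share the 15 min libraries.

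NRD1 and HRP1 are known to limit their own mRNA by early termination through the Nrd1 complex, and the first coding bases of both are shown for the letters this complex binds. Capitals mark GTAG and GTAA, bound as RNA by Nrd1, and TCTT, bound by Nab3, searched on the coding strand only. Each sequence is the first 300 coding bases from RefSeq (build R64), NRD1 at chrXIV:174016-174315 on the minus strand and HRP1 at chrXV:87844-88143 on the plus strand.
NRD1: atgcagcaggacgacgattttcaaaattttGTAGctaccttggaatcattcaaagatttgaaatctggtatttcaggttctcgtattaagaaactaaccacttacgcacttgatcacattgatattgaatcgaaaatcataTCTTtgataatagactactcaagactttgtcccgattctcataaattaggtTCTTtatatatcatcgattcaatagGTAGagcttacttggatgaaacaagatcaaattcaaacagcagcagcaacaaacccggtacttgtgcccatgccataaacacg
HRP1: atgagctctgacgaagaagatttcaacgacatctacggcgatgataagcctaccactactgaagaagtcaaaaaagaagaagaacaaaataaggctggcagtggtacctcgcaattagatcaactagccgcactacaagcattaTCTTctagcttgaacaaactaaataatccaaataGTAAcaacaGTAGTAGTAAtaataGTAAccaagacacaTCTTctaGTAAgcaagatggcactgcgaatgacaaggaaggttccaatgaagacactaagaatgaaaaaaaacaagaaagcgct
NRD1 held 2 GTAG, 0 GTAA and 2 TCTT, and HRP1 2 GTAG, 4 GTAA and 2 TCTT, counted with overlaps such as the joined GTAG and GTAA in HRP1. Over the same window of 5688 genes, GTAG was present in 44.8%, GTAA in 62.1% and TCTT in 72.3%. At least 4 GTAA were present in 2.04% of genes, at least 2 GTAG in 13.3% and at least 2 TCTT in 38.5%. In the same window TRF5 held 0 GTAG, 3 GTAA and 1 TCTT, and NAB3 0, 2 and 0.

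Of the 7 genes known for such early termination that were measured, NRD1 and HRP1 rose and 5 did not pass, with a median log2 fold change of 0.50. URA2 had 1746 and 1635 CPM at 15 min against 1247 and 1144 in the control and did not pass (0.50 ± 0.26, edgeR adjusted p = 0.432). Of 18 exosome and TRAMP genes TRF5 alone passed, with a median of -0.06 over the list. Of 23 cleavage and polyadenylation genes HRP1 alone passed, with a median of 0.19. RNA14, another gene of that list, had 36.4 and 15.7 CPM at 15 min against 0.686 and 1.12 in the control, but 1.01 and 18.0 at 0 min. Between 15 min and the control it did not pass (4.83 ± 1.19, edgeR adjusted p = 0.0707). Of 24 genes of mRNA packaging and export none passed. PAB1, the main poly(A)-binding protein of the cytoplasm, had 2106 and 2109 CPM at 15 min against 1301 and 1555 and did not pass (0.56 ± 0.24, edgeR adjusted p = 0.32).

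**Figure D3:**
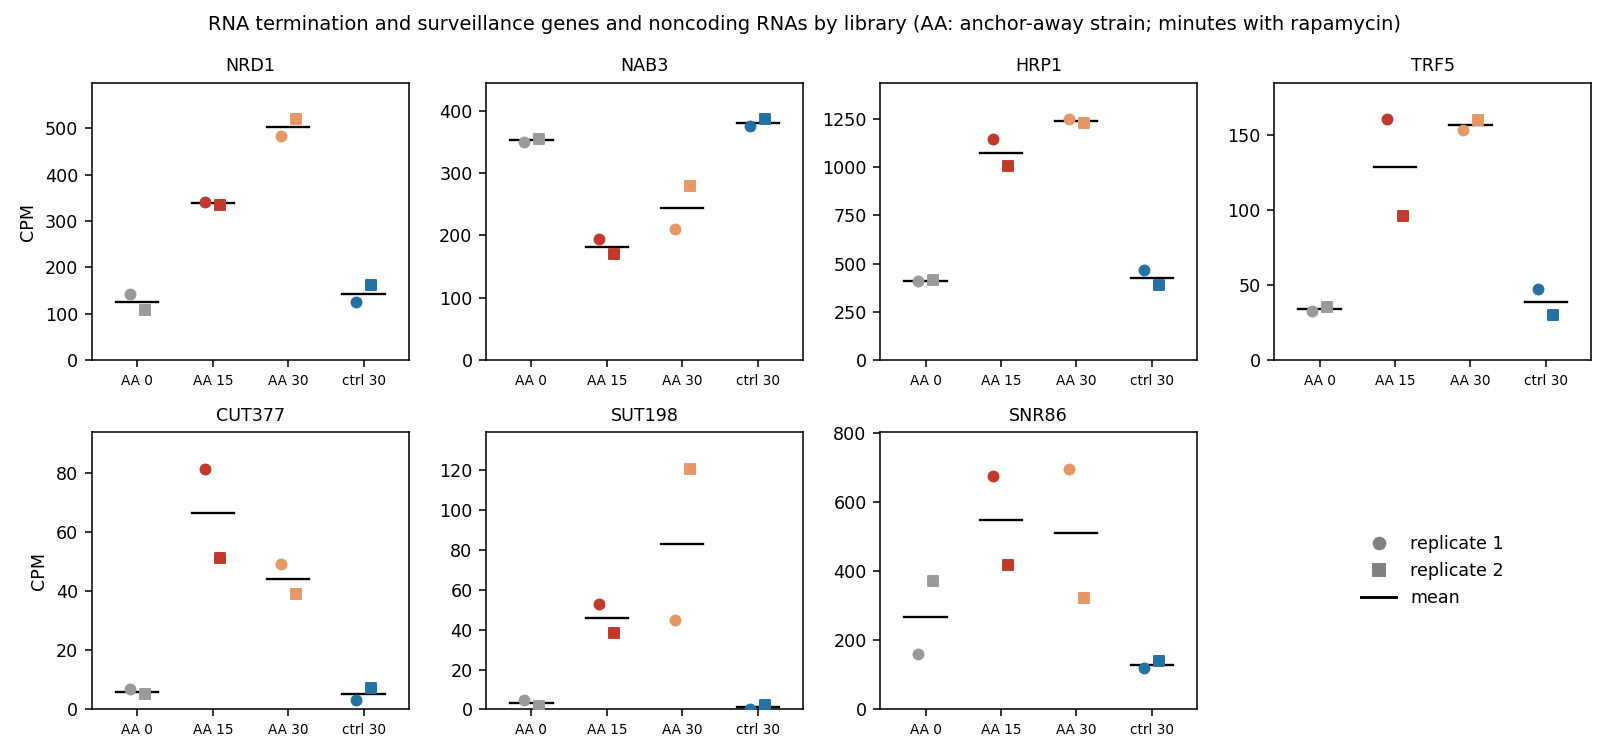
CPM of 4 RNA termination and surveillance genes and of the CUT, the SUT and the snoRNA that differed between the 15 min and control libraries, in every library of the anchor-away strain (AA) and the control. Circles and squares are replicates 1 and 2 and bars are means; NRD1 lay at 335 and 341 CPM at 15 min, above the 4 libraries of 0 min and control (107 to 163).

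Noncoding transcripts took a larger share of the counts at 15 min than in the control. All 925 CUTs together held 0.126% and 0.119% of the counts at 15 min and 0.0423% and 0.0575% in the control, a ratio of means of 2.45. The 0 min libraries held 0.0570% and 0.0596%, and the 30 min libraries 0.198% and 0.167%. Both 15 min libraries therefore lay above all 4 libraries without anchoring and below both 30 min libraries. Without CUT377, the largest contributor, the 15 min shares were 0.118% and 0.115% and the control shares 0.0420% and 0.0569%. For 847 SUTs the shares were 0.319% and 0.297% against 0.245% and 0.222%, a ratio of 1.32. The shares of classes were not tested.

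Single CUTs were thinly covered. Of 925 CUTs, 241 and 545 had a count at 15 min and 100 and 477 in the control, lower in the replicates of low complexity. Of the 323 tested, 1 passed. The filter can be met by the anchor-away libraries alone: of the 323, 19 were at 0 in both control libraries and 2 at 0 in both 15 min libraries. Over all 925 CUTs without a filter, both 15 min libraries were above both control libraries for 140 (15.1%) and below for 16 (1.73%), where all 7658 features gave 20.7% and 18.6%, and most of the other CUTs had no count in at least 1 library of each group. The median log2 fold change of the tested CUTs was 1.70, and 1.64 from summed counts with a floor of 3 counts per group for CUTs at 0, against 0.04 over all features. That median rested on the libraries: leaving out replicate 1 or 2 at 15 min gave 1.62 or 0.0, and leaving out replicate 1 or 2 of the control gave 1.06 or 6.06, each over the CUTs that passed the count filter in that fit. Over the same 323 CUTs as in the full fit, leaving out a library gave medians from 0.04 to 6.62. With no filter on low counts it was 0.85, and without the libraries of low complexity 0.82. The part of library complexity in the single values was not tested. In both 15 min libraries and in neither control library 23 CUTs were detected, and the reverse held for 6. The same counts were 16 and 7 of 847 SUTs and 30 and 9 of 5411 transcripts of open reading frames, so the order was the same in these classes. In each class the control library had fewer features with a count than the 15 min library of the same replicate number. The part of this detection in the counts was not tested.

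CUT377 had 81.5 and 51.2 CPM at 15 min, 3.09 and 7.17 in the control and 6.83 and 5.30 at 0 min. Its 15 min level was above all 4 of those libraries, by 3.69 ± 0.61 on the log2 scale over the control (edgeR adjusted p = 0.00979). SUT198 had 53.0 and 38.1 CPM at 15 min, 0.343 and 2.13 in the control and 4.68 and 1.81 at 0 min (log2 fold change 5.19 ± 0.83, edgeR adjusted p = 0.00979). At 30 min both stayed high, with 49.2 and 39.1 CPM for CUT377 and 45.0 and 121 for SUT198. Without 15 min replicate 1 neither passed (edgeR adjusted p = 0.136 and 0.0955), and without control replicate 1 CUT377 did not (edgeR adjusted p = 0.0563). CUT557, the CUT with the next smallest p, had 25.5 and 54.7 CPM at 15 min against 4.00 and 10.9 and did not pass (2.43 ± 0.62, edgeR adjusted p = 0.073).

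The snoRNAs, which guide modification of ribosomal RNA, held 0.399% and 0.447% of counts at 15 min against 0.274% and 0.298%, a ratio of 1.48 over 56 features. SNR30 supplied 81.1% of that class at 15 min and did not pass by itself (0.46 ± 0.29, edgeR adjusted p = 0.534). SNR86 was the snoRNA that passed. It had 676 and 417 CPM at 15 min, 119.8 and 139.6 in the control and 161 and 371 at 0 min (log2 fold change over the control 2.08 ± 0.44, edgeR adjusted p = 0.0484). It passed in none of the 4 fits without a library, with edgeR adjusted p from 0.0678 to 0.438. Structural noncoding RNAs held 6.80% and 7.55% of counts against 4.96% and 6.21%, most of it SCR1, the signal recognition particle RNA. Introns held 0.127% and 0.120% against 0.119% and 0.118%, a ratio of 1.05, and the HAC1 intron alone made up 45.1% of that class at 15 min. Over the 71 introns tested the median log2 fold change was 0.85, with a range from -0.16 to 1.70 when a library was left out, and none passed. Of those 71, 7 were at 0 in both control libraries and 1 at 0 in both 15 min libraries. Of all 359 introns, without a filter, 23 (6.41%) had both 15 min libraries above both control libraries and 9 (2.51%) below. All 7658 features gave 20.7% and 18.6%. Small RNAs were largely removed before sequencing, and with fragments counted on one strand these values need not stand for mature RNA.

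**Figure D4:**
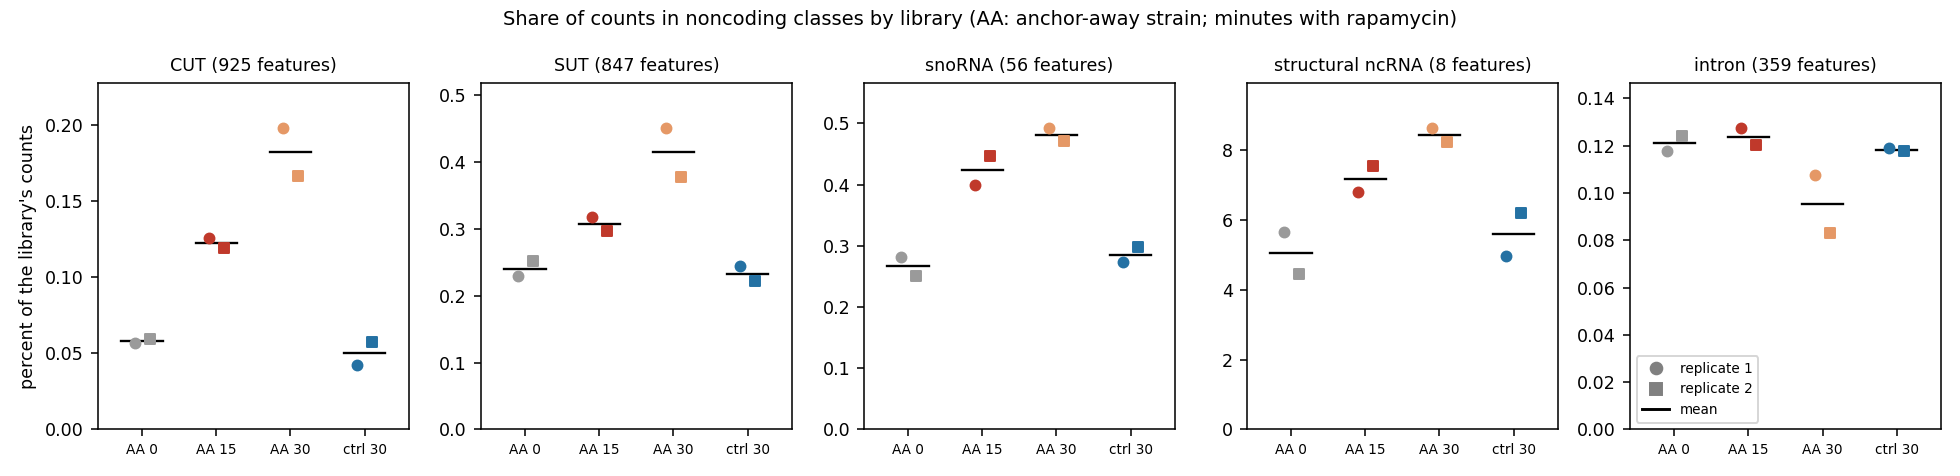
Percent of each library's counts in CUTs, SUTs, snoRNAs, structural noncoding RNAs and introns, by library of the anchor-away strain (AA) and the control. Circles and squares are replicates 1 and 2 and bars are means; the CUT share is 0.119% or more in the anchor-away libraries at 15 and 30 min and 0.0596% or less in the other 4.

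Genes of the hypoxic programme were among the clearer rises. The repressor Rox1 holds these genes down when oxygen and heme are present. Of 14 measured, ROX1, ANB1, TIR1 and OLE1 passed as higher at 15 min and none passed as lower. Of all features tested 0.533% passed as higher. The log2 fold change was above 0 for 11 of the 14 genes, with a median of 0.91. ROX1 (chrXVI:679693-680799) had 370.2 and 325 CPM at 15 min, 111 and 116 in the control and 102 and 127 at 0 min. Its 15 min libraries stood well apart from those 4, by 1.61 ± 0.26 over the control (edgeR adjusted p = 0.00979). ANB1, the hypoxic isoform of a translation factor, had 184 and 165 CPM at 15 min against 34.9 and 11.99 (2.90 ± 0.56, edgeR adjusted p = 0.0284). TIR1, a cell wall mannoprotein made without oxygen, had 175 and 269 CPM against 1.26 and 9.07 (5.42 ± 0.76, edgeR adjusted p = 0.00979). OLE1, the fatty acid desaturase, had 1957 and 1771 CPM against 916 and 867 (1.06 ± 0.24, edgeR adjusted p = 0.0406). The repressor and genes of its programme were thus high in the same libraries. Without 15 min replicate 1 the edgeR adjusted p was 0.136 for ROX1, 0.118 for TIR1, 0.23 for ANB1 and 0.436 for OLE1. ANB1 passed only without control replicate 1 among the 4 fits, and OLE1 in none.

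At 30 min these levels were lower than at 15 min. ROX1 had 214 and 201 CPM at 30 min, ANB1 42.1 and 24.8, TIR1 57.8 and 36.6 and OLE1 791 and 760.4. For OLE1 that is below both control libraries, whereas ROX1 and TIR1 were still above both. Against the control at 30 min TIR1 passed (log2 fold change 3.19, edgeR adjusted p = 0.0195), and ROX1, ANB1 and OLE1 did not. Against 15 min the 30 min log2 fold change of OLE1 was -1.26 (edgeR adjusted p = 0.0317; 0.452% of all features passed), while ROX1, ANB1 and TIR1 did not pass. HEM13, an oxygen-repressed gene of heme synthesis in the same list, was at -0.19 between 15 min and the control and did not pass.

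Other rises were spread over many roles. TDH1, an isoform of glyceraldehyde-3-phosphate dehydrogenase, had 661 and 821 CPM at 15 min, 27.6 and 52.2 in the control, 369 and 476 at 0 min and 165 and 39.8 at 30 min. It was high in the anchor-away strain at 0 and 15 min and was higher than the control by 4.21 ± 0.65 (edgeR adjusted p = 0.0317), but it passed in none of the 4 fits without a library (edgeR adjusted p from 0.0741 to 0.321). It was the one member of 19 glycolysis and fermentation genes to pass, and their median was 0.10. HSP26, a small heat shock protein, had 64.03 and 86.7 CPM at 15 min against 18.8 and 15.5, and ALD4, a mitochondrial aldehyde dehydrogenase, 223 and 302 against 66.5 and 119. These were the 2 of 27 stress and storage genes that rose (2.14 ± 0.49 and 1.50 ± 0.32, edgeR adjusted p = 0.0468 and 0.0342). The list's median was 0.60. Of 24 cytosolic chaperone genes HSP26 alone rose, with a median of 0.14. SRP68, a subunit of the signal recognition particle, had 62.6 and 54.9 CPM against 4.35 and 9.86 in the control and 15.1 and 72.4 at 0 min, so the 0 min replicates differed from each other. HXT2, a glucose transporter, had 382 and 341 CPM against 129 and 161, and NCE103, the carbonic anhydrase, 259.6 and 233 against 98.0 and 100.5. SIR4, a subunit of the silencing complex, had 107 and 63.8 CPM at 15 min against 16.8 and 23.0. NOP13, a nucleolar RNA-binding protein, had 193 and 132 against 58.2 and 48.3. RPL1B was the one of 79 large-subunit ribosomal protein genes to rise, with 375 and 338 CPM against 149 and 153 (1.24 ± 0.26, edgeR adjusted p = 0.0315), in a list with a median of -0.09, and it shares near-identical sequence with its paralog, so its counts are uncertain. The remaining rises were PCL8, YDR341C, PRR2, YGR035C, YKR075C and the composite features CTR2/YHR175W-A, YLR342W-A/GAS2 and PRM7/YDL038C/BSC1, with log2 fold changes from 1.92 to 3.75. Of the genes in this paragraph none passed without 15 min replicate 1, with edgeR adjusted p from 0.118 to 0.465.

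The falls had a median log2 fold change of -1.62. The genes of mitochondrial proteins among them are described first, grouped by role after their values were seen, and ALD4 above is a mitochondrial enzyme among the rises. COA3 (chrX:316723-316980), an assembly factor of cytochrome c oxidase, had 19.2 and 27.5 CPM at 15 min and 117 and 124 in the control. Its groups were widely separated (log2 fold change -2.36 ± 0.42, edgeR adjusted p = 0.0133), and its call was lost only without 15 min replicate 1 among the 4 fits (edgeR adjusted p = 0.23). RSM7, a protein of the small mitochondrial ribosomal subunit, had 21.7 and 30.1 CPM against 101 and 134 (-2.18 ± 0.42, edgeR adjusted p = 0.0246). MRM1, which methylates mitochondrial ribosomal RNA, had 17.4 and 44.4 CPM against 171 and 90.1. RTC6, a mitochondrial ribosomal protein, had 19.4 and 27.7 against 108 and 91.1. TOM20, a receptor for protein import, had 93.1 and 93.2 CPM against 279 and 226, with replicates that nearly coincided at 15 min (-1.44 ± 0.30, edgeR adjusted p = 0.0317). YME1, a protease of the inner membrane, had 54.7 and 113 CPM at 15 min against 220.1 and 294. ILV5, a mitochondrial enzyme of branched-chain amino acid synthesis, had 655 and 635 CPM against 1703 and 2282 (-1.63 ± 0.28, edgeR adjusted p = 0.0101). Without 15 min replicate 1 none of these 7 passed, with edgeR adjusted p from 0.23 to 0.465.

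Few members of the lists of mitochondrial protein genes passed. Of 65 genes tested in the list of the mitochondrial ribosome 1 fell (RSM7) and none rose, and the median log2 fold change was -0.49. RTC6, which fell too, is not in that list. Both 15 min libraries were below both control libraries for 28 of the 65 (43.1%) and above for 7 (10.8%), beside 22.6% and 24.8% of all features. Of 16 TOM and small TIM genes 1 fell (TOM20) and the median was -0.54. For 10 of them both 15 min libraries were below both control libraries, and for 2 above. TIM17, a channel subunit, had 23.5 and 45.0 CPM against 114 and 117 and did not pass (-1.76 ± 0.42, edgeR adjusted p = 0.0566). The 6 mitochondrial chaperone genes had a median of -0.65 and none passed. Among 32 genes of the respiratory chain and ATP synthase none passed, 13 were above 0 and the median was -0.16, with quartiles of -0.66 and 0.72. Its sign rested on the libraries, since the median ranged from -0.39 to 0.09 when a library was left out. Under the 5 other library scalings the medians stayed below 0 for all of these lists, from -1.03 to -0.35 for the mitochondrial ribosome and from -0.70 to -0.02 for the respiratory chain.

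MBF1 (chrXV:877230-877685), a coactivator of transcription with Gcn4, had 204 and 236 CPM at 15 min and 905 and 762 in the control. Replicates were close in both groups and the difference was -1.92 ± 0.32 on the log2 scale (edgeR adjusted p = 0.00979). Of 46 amino acid synthesis genes under Gcn4, however, ILV5 alone fell, and the median was 0.08. CBC2, a subunit of the nuclear cap-binding complex, had 30.8 and 39.0 CPM at 15 min against 145 and 102 (-1.82 ± 0.36, edgeR adjusted p = 0.0267). RRD1, an activator of a protein phosphatase, had 32.3 and 30.0 CPM against 108 and 129. SML1, the inhibitor of ribonucleotide reductase, had 229 and 215 against 591 and 604 (-1.43 ± 0.26, edgeR adjusted p = 0.0136). CCT6, a subunit of the cytosolic chaperonin, had 143 and 155 against 396 and 405, and PUP1, a catalytic proteasome subunit, 105 and 124 against 302 and 291. For each of these genes the 0 min libraries lay above both 15 min libraries. The call was lost without 15 min replicate 1 for all 6, with edgeR adjusted p from 0.23 to 0.415.

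Of 32 proteasome genes, PUP1 fell, none rose and the median was -0.35. Both 15 min libraries were below both control libraries for 16 of the 32 (50%) and above for 4 (12.5%), beside 22.6% and 24.8% of all features tested. Of 10 histone genes HHT1 fell and none rose, and all 10 had a negative log2 fold change with a median of -0.68. In 8 of the 10 (80%) both 15 min libraries were below both control libraries, beside the same 22.6% of all features tested. HHT1 had 138 and 108 CPM against 286 and 281 (-1.20 ± 0.28, edgeR adjusted p = 0.0453), and HTZ1, a histone variant, 20.7 and 18.8 against 86.1 and 69.1 (-1.97 ± 0.49, edgeR adjusted p = 0.0642). At 30 min the median of the histone list against the control was 0.03. Histone mRNAs of yeast are polyadenylated, and paralogs with near-identical coding sequence may share reads. Of 52 small-subunit ribosomal protein genes RPS9A and RPS27A fell, with 136 and 115 CPM against 428 and 298 and 341 and 232 against 942 and 745, while the median of the list was 0.05. Of 81 ribosome biogenesis genes SRP40, a nucleolar protein, fell and the median was 0.12.

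The other falls were TUB4, HEM3, ISC1, RFS1, YIP4, TAH11, PMU1, IRC7, LYP1, GCS1 and TRM112, with log2 fold changes from -2.13 to -1.28. TUB4, gamma-tubulin, had 13.0 and 18.2 CPM at 15 min against 71.0 and 65.3. HEM3, an enzyme of heme synthesis, had 32.0 and 19.9 against 141 and 80.0. TAH11, which licenses replication origins, had 33.4 and 71.5 against 171 and 157. LYP1, the lysine permease, had 68.7 and 102 against 223 and 227. Each of these 4 had both 15 min libraries below both control libraries and below both 0 min libraries, and none passed without 15 min replicate 1 (edgeR adjusted p from 0.23 to 0.619).

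No member passed in the lists of auxotrophic markers (7 genes), nitrogen catabolite repression (28), ergosterol synthesis (25), phosphate (17), iron (24), galactose (6), peroxisomal metabolism (23), RNA polymerase II (11), RNases P and MRP (8), cell cycle (21), purine synthesis (17) and structural noncoding RNAs (6). Over these lists and those named above as without a passing member, together 257 features, 41 had an unadjusted p under 0.05 in edgeR, and 9 passed by DESeq2 and 9 by limma-voom. Of all 6191 features 813 had an unadjusted p under 0.05, and 230 passed by DESeq2 and 153 by limma-voom. The list of auxotrophic markers lacks HIS3, which was counted only in the composite feature HIS3/YOR203W, and that feature passed as higher. The sign of the smaller medians rested on the scaling: under at least 1 of the 5 other scalings the median changed sign for the lists of early termination (-0.08 to 0.64 over the scalings tried), exosome and TRAMP (-0.62 to 0.08), cleavage and polyadenylation (-0.41 to 0.34), ribosomal large-subunit (-0.67 to 0.06) and small-subunit (-0.52 to 0.19), ribosome biogenesis (-0.48 to 0.27), Gcn4 (-0.47 to 0.22), glycolysis (-0.44 to 0.25) and cytosolic chaperones (-0.45 to 0.28). The medians of the histone, proteasome and import lists stayed below 0 and that of the hypoxic list above it (0.38 to 1.06).

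For the 30 features lower at 15 min, the median log2 fold change was -1.62 over the control, -1.20 over 0 min and, for 0 min over the control, -0.38. For the 33 higher, these medians were 2.35, 1.38 and 0.97. By these medians the 0 min libraries lay between the groups and nearer to the control for both sets. Both sets were chosen for a large difference between 15 min and the control, so a place between them is expected from that choice. At 30 min over the control the medians were -1.55 and 1.85, and 24 of the 30 falls and 20 of the 33 rises passed there, as did 6.07% of all features. Over 0 min 8 of the rises and 1 of the falls passed: CUT377, ANB1, TRF5, ROX1, HRP1, NCE103, NRD1 and OLE1, and RPS9A. These comparisons share libraries with one another, so the values are given side by side and are not separate evidence.

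**Figure D5:**
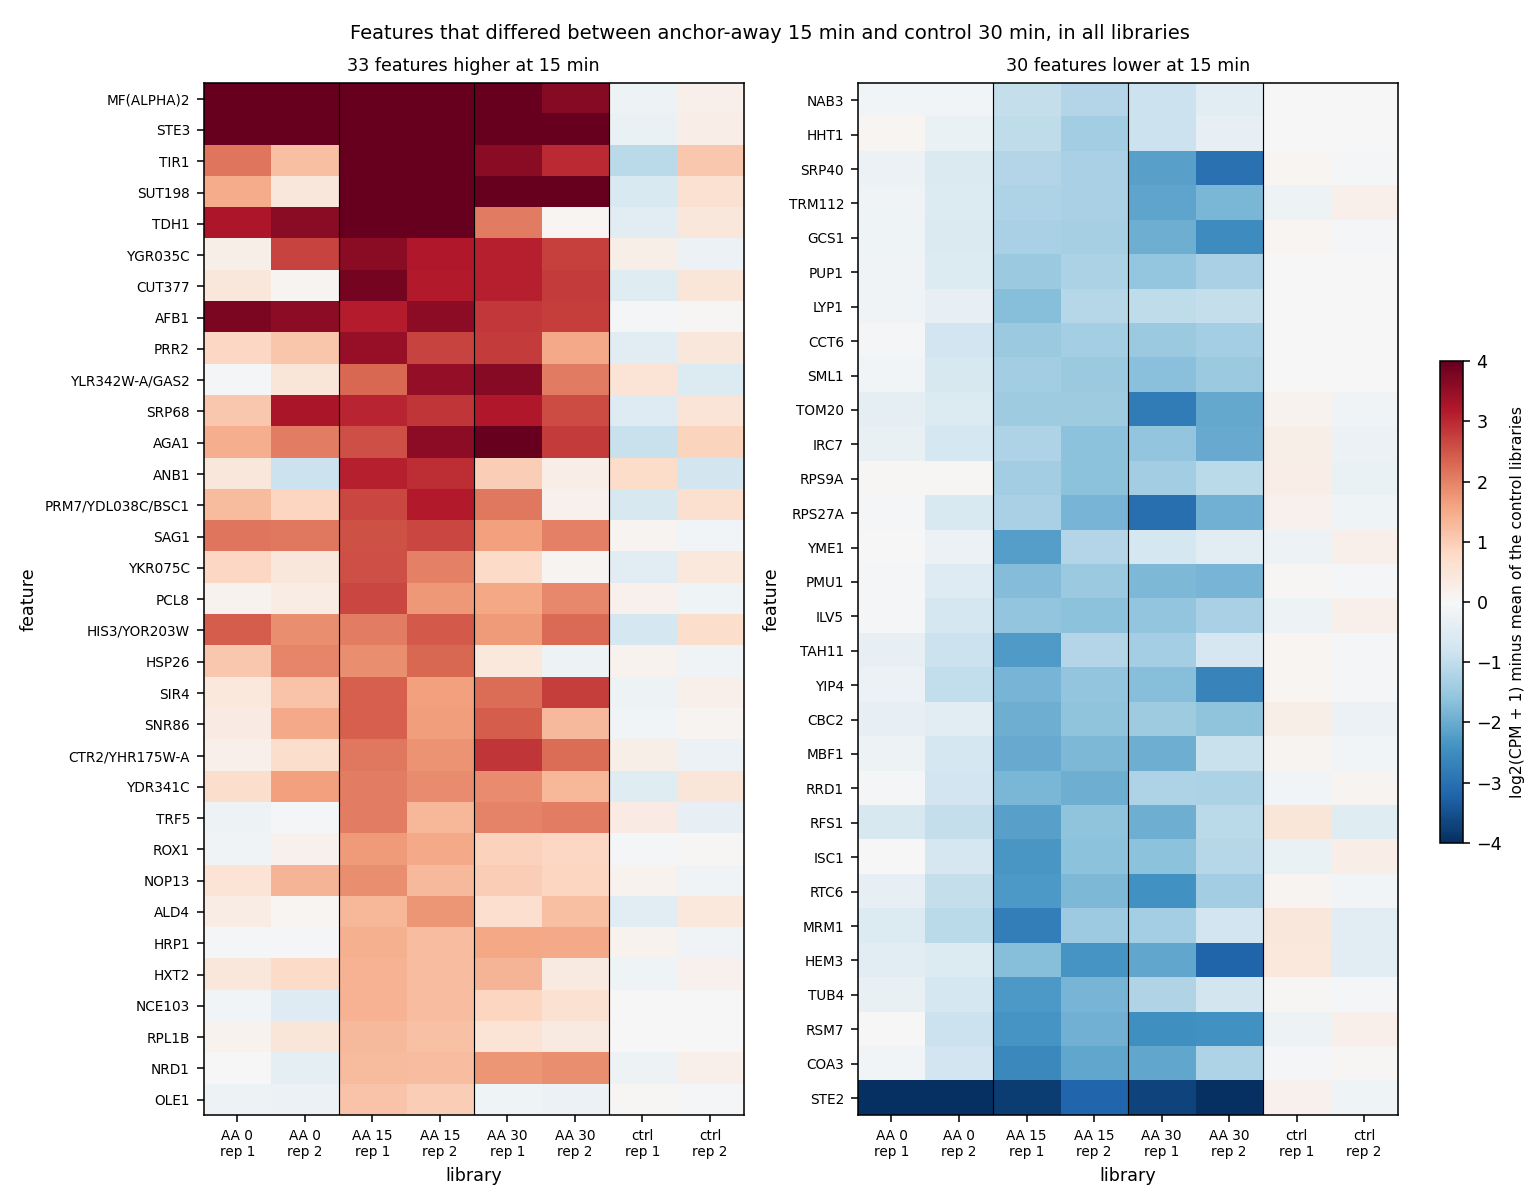
Level of the 33 features that were higher (left) and the 30 that were lower (right) at 15 min, in all 8 libraries, as log2(CPM + 1) minus the mean of the control libraries; colours are capped at 4 and -4. Alpha-specific genes and HIS3/YOR203W are high in the anchor-away strain (AA) already at 0 min, whereas ROX1, NRD1 and OLE1 are at the level of the control there.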

How the data were processed

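For each annotated feature the authors deposited a raw count of reads in each library, without normalisation. Build R64 and the tools bedtools 2.17.0, HTSeq 0.5.3 and GSNAP 2012-01-11 come from the submitters' processing notes, which give them no roles. Per the labels, total RNA was depleted of ribosomal RNA, small RNAs were largely removed, a spike-in of RNA from fission yeast was used and libraries kept the strand. The table used here held 0 spike-in features. From 7711 rows, 29 exact repeats and 24 entries shadowing a gene were removed, which left 7658 features, 297 of them composites of more than 1 gene. RefSeq names matched 5858 of the 6191 gene names in the table, which by chance is also the number of features tested.

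The test was the quasi-likelihood test of edgeR 4.0.16 in R 4.3.3 (TMM, filterByExpr, robust glmQLFit) in 1 model of all 8 libraries with 4 residual degrees of freedom and a biological coefficient of variation of 0.611. It was 2-sided with Benjamini-Hochberg adjustment over 6191 features. On simulated counts, with 50 well-counted features changed at each fold, the test recovered 12% of 2-fold and 60% of 4-fold changes. It recovered 78% of 8-fold and 78% of 16-fold changes, and 9 unchanged features passed. Features that did not pass may therefore still differ. The simulation drew all libraries from the same model, with none of low complexity, so its rates may not hold for the real libraries. Fitted fold changes of features near 0 in a group depend on a small prior count and are no bounds. Each SE (±) of edgeR was derived from the test, as the absolute log2 fold change divided by the square root of the F statistic. For features near 0 in a group it is no bound either. Intervals of count ratios are exact binomial at 95% and cover counting error only. With 2 libraries a group, the smallest p of an exact permutation test is 0.33. The alternatives were 20 in number and included DESeq2 1.42.0 and limma 3.58.1. Tables and figures used Python 3.11.15 with pandas 2.3.3, scipy 1.17.1 and matplotlib 3.10.9.

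Named genes were the anchor components, the 12 largest rises and 12 largest falls with a mean of at least 50 counts and groups that do not overlap, all mating genes, and from each of 36 lists and the feature classes the 2 smallest p, the highest count and the largest exception. Genes named beyond that rule, such as ANB1, NCE103, SIR4 or YME1, and the motif of alpha1 and alpha2 were chosen after their values were seen. For 1 library of the anchor-away strain at 30 min the title gives replicate 3 and the description 2, which was followed. The comparison, lists and members were chosen with earlier results of these data known. ASG7, STE18, FUS3, FAR1, FUS1, IMD2 and FKS2 were not analysed here.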

Additional observations from a re-analysis of the deposited data

Results flagged for a closer look

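The difference between the anchor-away strain and the control changed between 15 and 30 min for OLE1 and for the intron of HAC1, among the features named here. Since the control is the same for both times, this is the test of the 30 min against the 15 min libraries in the same edgeR model. OLE1, the fatty acid desaturase, had 1957 and 1771 CPM at 15 min and 791 and 760.4 at 30 min, a log2 fold change of -1.26 ± 0.24 (SE; edgeR adjusted p = 0.0317). The HAC1 intron, which is spliced outside the spliceosome when protein folding in the endoplasmic reticulum is disturbed, had 640.5 and 579.7 CPM at 15 min, and its 30 min levels of 238 and 206 were below those of the control, 466 and 737. Its log2 fold change from 15 to 30 min was -1.46 ± 0.27 (edgeR adjusted p = 0.0317), and between 15 min and the control it was 0.02 ± 0.27. In all, 28 features (0.452%) passed between 15 and 30 min.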

How the results depend on the processing

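The number of features that passed was 63. It was 59 with DESeq2's size factors and 61 with library totals. It became 33 with upper-quartile factors, 3 with scaling to mitochondrial features and 717 with scaling to snoRNAs, which shifted the median log2 fold change of all features by 0.14, -0.35 and -0.58. It was 281 with no filter, 21 with a mean of at least 50 counts, 230 with DESeq2, 153 with limma-voom, 118 with the 4 libraries compared alone and 12 without the libraries of low complexity. Leaving out one library at a time gave 4 to 199. The median log2 fold change of CUTs, 1.70, was 0.85 with no filter and 0.82 without the libraries of low complexity, and ranged from 0.0 to 6.06 when one library was left out, over the CUTs passing each fit's filter (0.04 to 6.62 over the same CUTs). None of the 63 features changed sign in the 20 alternatives, and over them 846 of the calls held and 414 were lost or, under a stricter filter, not tested. PDC1, not called at 0.01 on the log2 scale, was at -0.52 with scaling to snoRNAs. The cause of these changes was not tested. Scaling to spike-in totals was not run, since the table held 0 spike-in features.

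Replicates share numbers across groups but nothing states that a number marks a shared batch. With the replicate number as a block, 96 features passed (1.65 for the CUT median). The deviations of same-numbered libraries correlated at 0.05 between 15 min and control, and from -0.29 to 0.05 over all pairs of groups. Single CUTs are limited by thin coverage in the libraries of low complexity: 100 of 925 had a count in control replicate 1.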
